A study of Mus musculus with 14 samples.

Results

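The cadherins and protocadherins are calcium-dependent adhesion proteins of the cell surface, and their messages were followed here in ribosome-bound RNA of POMC neurons, the melanocortin neurons of the hypothalamus that restrain feeding. Members were the protein-coding genes whose symbol is Cdh, Pcdh, Pcdha, Pcdhb or Pcdhg with its number, a rule that reads the symbols and no measured value. There were 92 members among 21290 protein-coding genes. Of these, 57 belong to the clustered families Pcdha, Pcdhb and Pcdhg and 35 lie outside the clusters. They carry 91 symbols, because 2 Ensembl identifiers, ENSMUSG00000007440 and ENSMUSG00000102206, are both named Pcdha11.

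The study compared POMC neurons that also express the GLP-1 receptor gene, POMC Glp1r+ neurons, with those that also express the leptin receptor gene, POMC Lepr+ neurons. The first line was POMCDre+/- Glp1rCre+/- ROSA26lSlrSrEGFPL10a+/-, with 3 pools of 12 mice each, 6 males and 6 females. The second was POMCDre+/- LeprCre+/- ROSA26lSlrSrEGFPL10a+/-, with 4 pools of 6 mice each, 3 males and 3 females. All mice were 12 weeks old and random-fed. Each pool gave an IP library, from RNA pulled down with the EGFP-tagged ribosomal protein L10a, and an input library of the whole lysate, so that 14 libraries made 7 IP/input pairs. EGFPL10a is expressed from the ROSA26 locus once both Dre, carried on a BAC with human POMC sequence, and Cre have removed their stop cassettes, so a cell that expressed Pomc and the receptor at any earlier stage can stay tagged. The sources give the tissue both as whole hypothalami and as the arcuate nucleus.

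The measurement used is the authors' mean over the 7 pools of the IP/input ratio, in which 1 is the input level. It joins both lines, and no value of a single library was used, so the ratios carry no SD, no n and no test, and they say nothing of a difference between POMC Glp1r+ and POMC Lepr+ neurons. A mean over pools can be carried by a single pool. The depth is unknown. No correction for the size of the libraries is described for the ratios, and the median protein-coding gene, those at exactly 1 left aside, stood at 1.14, so a member near that value lay where most genes lay. In pooled tissue, fewer cells of a type and less RNA per cell cannot be told apart. A ratio is not a level of expression and does not order 2 genes by their amount of RNA.

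The POMC neuron markers were far above input: Pomc, the precursor of the melanocortins, at a ratio of 172, the peptide gene Cartpt at 32.5, and the transcription factors Prdm12 and Tbx3 at 30.2 and 20.4. Of 12 pan-neuronal markers 10 were above input, 83.3% against 62.4% of protein-coding genes, with a median of 1.52. They ran from Map2 at 0.571 to Gap43 at 2.05, and Syt1, at 0.775, was also below input. All 10 astrocyte markers (0.326 to 0.558), 9 oligodendrocyte markers (0.327 to 0.556), both oligodendrocyte precursor markers, 7 microglial markers (0.377 to 0.809) and 4 tanycyte and ependymal markers (0.465 to 0.954) were below it. The 7 endothelial and mural markers were mixed, with 2 above input, 5 below and a median of 0.967. The part of these cell types in the ratio of any member was not tested.

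Classical cadherins bind their like on the neighbouring cell through extracellular repeats that calcium stiffens, and their tails hold the catenins, which tie the junction to actin. Protocadherins lack the catenin-binding tail, and some delta protocadherins recruit the WAVE actin regulators. The clustered protocadherins lie side by side on a single chromosome. In the Pcdha and Pcdhg clusters, each variable exon has a promoter of its own and is spliced to shared constant exons, whereas a Pcdhb gene is a single coding exon. A neuron uses only some of these promoters, chosen with CTCF, cohesin and DNA methylation, and the resulting mix of isoforms lets its branches recognise and avoid each other.

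As a whole, the members lay where protein-coding genes lay. Of the 91 members with a ratio other than 1, 61 were above input, 67.0%, against 62.4% of the 18379 protein-coding genes that were off 1. A ratio above 1.5 was found for 20 members, 22.0%, against 23.7% of protein-coding genes, and a ratio below 0.667, the same fold in the other direction, for 12 members, 13.2%, against 11.6%. The members' ratios ran over 0.350 to 3.24, with a median of 1.15 over all 92 and of 1.17 over the 91, beside the protein-coding median of 1.14. The remaining member, Cdh16, was at exactly 1, the value that a gene without reads in any library would take.

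The clustered members had a median of 1.17 with 42 of 57 above input, 73.7%. The members outside the clusters had a median of 1.01 with 19 of 35 above input, 55.9% of the 34 off 1. Protein-coding genes, with a median of 1.14 and 62.4% above input, lay between the 2 groups. The members outside the clusters reached further on both sides, with 0.350 to 3.24 against 0.530 to 2.69 for the clustered members. Coding length did not order the ratios, with a Spearman's rho of 0.13 across the 92 members, given as a description because these genes share libraries.

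**Figure D1:**
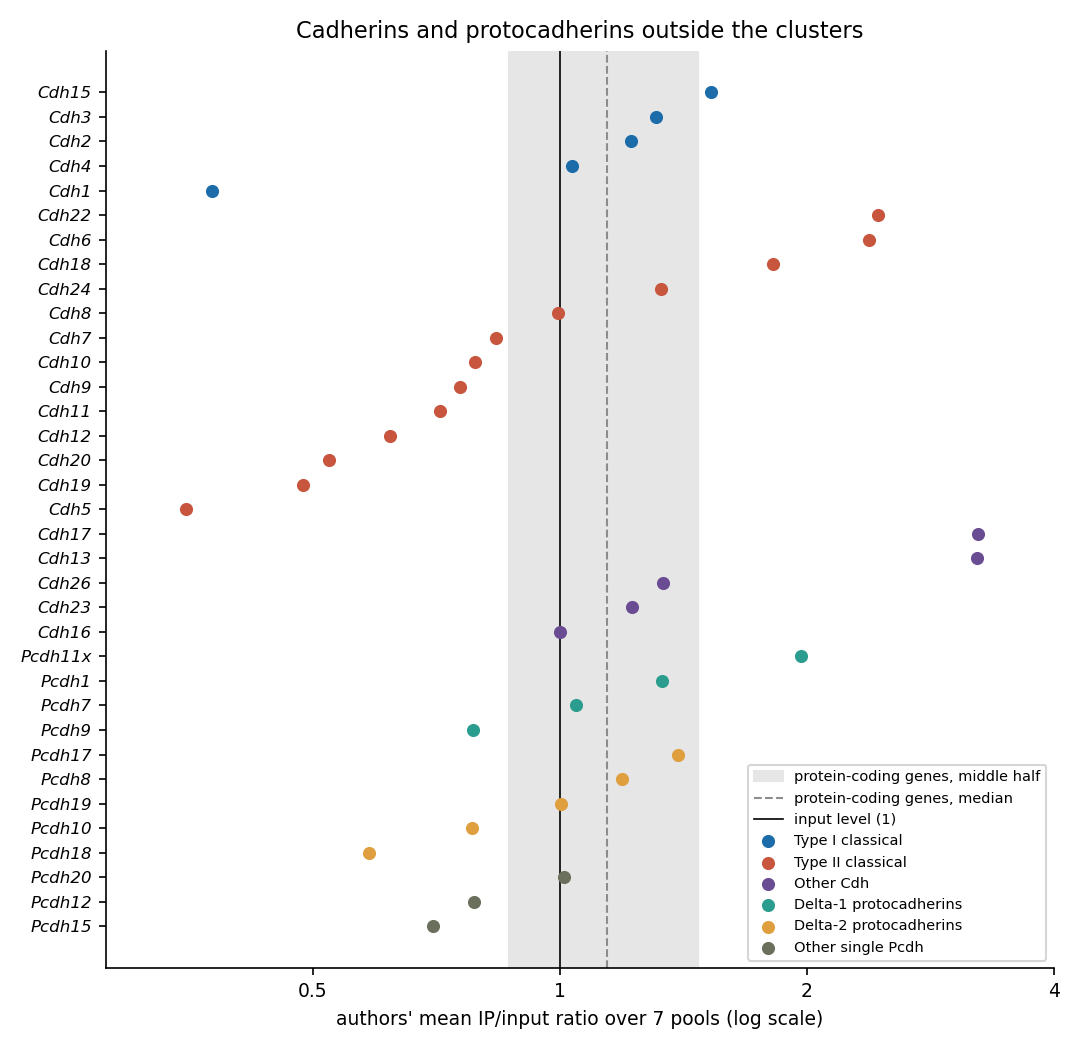
Authors' mean IP/input ratio over 7 pools (log scale) for each of the 35 cadherins and protocadherins outside the clusters, ordered within classes, with the input level at 1 and the median and middle range of protein-coding genes marked. Cdh17 at 3.24, Cdh13 at 3.22, Cdh22 at 2.44 and Cdh6 at 2.38 lie highest, and Cdh5 at 0.350 and Cdh1 at 0.376 lie lowest.

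The 2 highest ratios of all members belonged to cadherins that lack the classical cytoplasmic tail. Cdh17, the liver-intestine cadherin (GRCm38 chr4:11758147-11817895, plus strand), had a ratio of 3.24, and 97.4% of protein-coding genes were below it. Cdh13, the T-cadherin, which is held to the membrane by a lipid anchor and binds adiponectin (chr8:118283733-119324921, plus strand), had a ratio of 3.22. If 6 pools had been at input level, the remaining pool would have needed a ratio of 16.7 for Cdh17 and 16.6 for Cdh13. In the same class Cdh26 was at 1.34 and Cdh23, part of the tip link of sensory hair cells, at 1.22.

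The type II cadherins, which sort neurons into groups and match synaptic partners, lay mostly under input. Of 13 genes, 4 were above input and 9 below, 30.8% above against 62.4% of protein-coding genes, and their median was 0.788. Cdh22, first described in pituitary and brain (chr2:165111507-165234853, minus strand), had a ratio of 2.44, and Cdh6, the K-cadherin (chr15:13028701-13173675, minus strand), a ratio of 2.38. Cdh18 was at 1.82 and Cdh24 at 1.33, and these 4 were the genes above input. For Cdh22 a single pool would have needed 11.1 and for Cdh6 10.7 to give these means alone.

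On the other side, Cdh5, the VE-cadherin of endothelial junctions (chr8:104101625-104144511, plus strand), had a ratio of 0.350, the lowest of all members, with 1.29% of protein-coding genes below it. Of the 7 endothelial and mural markers beside it, 5 were below input and 2 above, from Rgs5 at 0.514 to Pecam1 at 1.55, with a median of 0.967. Cdh19, found in glia that ensheathe nerves, was at 0.486, Cdh20 at 0.523 and Cdh12, a brain cadherin, at 0.620. Cdh11 was at 0.714, and the brain cadherins Cdh9, Cdh10, Cdh7 and Cdh8 were at 0.755, 0.788, 0.836 and 0.996. The type II genes thus spanned nearly the whole range of the members, and no test is at hand to say which neighbours in that order differ.

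The type I cadherins, which form the strong junctions of sheets and synapses, had a median of 1.22, and 4 of the 5 were above input, where 62.4% of protein-coding genes were. Cdh2, the N-cadherin of neuronal contacts, was at 1.22, Cdh3, the P-cadherin, at 1.31, Cdh4, the R-cadherin, at 1.04 and Cdh15, the M-cadherin of muscle, at 1.53. Cdh1, the E-cadherin of epithelia (chr8:106603351-106670246, plus strand), was at 0.376, with 1.77% of protein-coding genes below it.

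The promoter windows of 4 members are shown because these are the 2 highest and the 2 lowest ratios among the members with a single window, and the number of CpG sites is a common way to class promoters. Each window runs over 300 bases, 250 before a start site and 50 after it, on the gene's strand and 5′ to 3′, from RefSeq on GRCm38.p6, with each CG in capitals. That site need not be the outer end of the gene in the coordinates given above. For Cdh22, on the minus strand, the gene's end at 165234853 does not fall 250 bases into the window.
Cdh22: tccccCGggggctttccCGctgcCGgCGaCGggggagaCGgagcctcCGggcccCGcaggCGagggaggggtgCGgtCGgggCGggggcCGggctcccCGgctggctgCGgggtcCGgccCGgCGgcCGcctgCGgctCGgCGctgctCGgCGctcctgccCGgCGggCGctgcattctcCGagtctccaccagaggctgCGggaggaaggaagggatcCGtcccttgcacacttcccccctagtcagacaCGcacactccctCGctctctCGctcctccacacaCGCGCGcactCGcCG
Cdh6: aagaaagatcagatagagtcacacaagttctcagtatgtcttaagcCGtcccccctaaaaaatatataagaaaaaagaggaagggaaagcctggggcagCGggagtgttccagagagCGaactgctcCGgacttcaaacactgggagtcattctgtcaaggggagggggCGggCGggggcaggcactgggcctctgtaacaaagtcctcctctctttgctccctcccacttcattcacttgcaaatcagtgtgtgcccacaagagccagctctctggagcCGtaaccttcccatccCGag
Cdh20: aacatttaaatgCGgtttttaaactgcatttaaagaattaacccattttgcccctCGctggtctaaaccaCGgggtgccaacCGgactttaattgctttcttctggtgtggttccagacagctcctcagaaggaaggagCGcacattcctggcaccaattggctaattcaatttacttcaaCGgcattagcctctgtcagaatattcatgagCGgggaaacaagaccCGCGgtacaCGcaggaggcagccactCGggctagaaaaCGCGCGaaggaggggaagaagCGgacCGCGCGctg
Pcdh18: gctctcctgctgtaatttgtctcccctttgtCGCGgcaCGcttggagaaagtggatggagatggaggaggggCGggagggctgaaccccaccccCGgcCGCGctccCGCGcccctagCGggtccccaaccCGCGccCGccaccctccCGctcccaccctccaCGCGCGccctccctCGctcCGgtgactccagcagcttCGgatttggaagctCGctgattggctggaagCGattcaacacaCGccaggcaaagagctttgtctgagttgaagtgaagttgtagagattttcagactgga
The Cdh22 window (chr2:165234688-165234987, minus strand) held 38 CG, more than in 95% of all 32851 windows, and the Cdh6 window (chr15:13173626-13173925, minus strand) held 8, more than in 51.4%. The Cdh20 window (chr1:104768270-104768569, plus strand) held 18, more than in 70.3%, and the Pcdh18 window (chr3:49757267-49757566, minus strand) held 23, more than in 78.5%. The highest and the lowest count of these 4 both belonged to members above input. The motif searched was CG, whose complement reads the same, and 94.6% of all windows held at least 1. Over the 25 windows of the 22 members that had one, the median was 14 CG, against 7 over all windows. All 22 are among the 35 members outside the clusters, and Cdh7 and Pcdh9 had more than 1 window each. The median therefore does not describe the clustered genes or the family as a whole.

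Of the protocadherins outside the clusters, 7 of 12 were above input and 5 below, 58.3% above against 62.4% of protein-coding genes. In the delta-1 class, Pcdh11x, an X-linked gene, was highest at 1.97, with 90.6% of protein-coding genes below it. Pcdh1 was at 1.33, Pcdh7 at 1.05 and Pcdh9 at 0.783. In the delta-2 class, Pcdh17 was at 1.39, Pcdh8, a synaptic protein induced by neuronal activity, at 1.19 and Pcdh19, the X-linked gene mutated in a human epilepsy, at 1.00. Pcdh10 was at 0.781 and Pcdh18 at 0.585. Delta-1 and delta-2 genes had medians of 1.19 and 1.00. Outside both classes, Pcdh20 was at 1.01, Pcdh12, an endothelial protocadherin, at 0.786 and Pcdh15, the partner of Cdh23 in the hair cell tip link, at 0.700.

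The clustered families lay in sequence along chromosome 18 of GRCm38, Pcdha at 36930184 to 37187661, Pcdhb at 37264938 to 37524479 and Pcdhg at 37661793 to 37841873. A ratio above 1 was found for 12 of 14 Pcdha genes (85.7%), 13 of 22 Pcdhb genes (59.1%) and 17 of 21 Pcdhg genes (81.0%), against 62.4% of protein-coding genes, with medians of 1.22, 1.04 and 1.34 against 1.14. A ratio below 0.667 was found for 0 Pcdha (0%), 5 Pcdhb (22.7%) and 1 Pcdhg (4.76%) genes, against 11.6% of protein-coding genes. The Pcdha genes share constant exons, as do the Pcdhg genes, so the counts in these families are not of independent values.

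**Figure D2:**
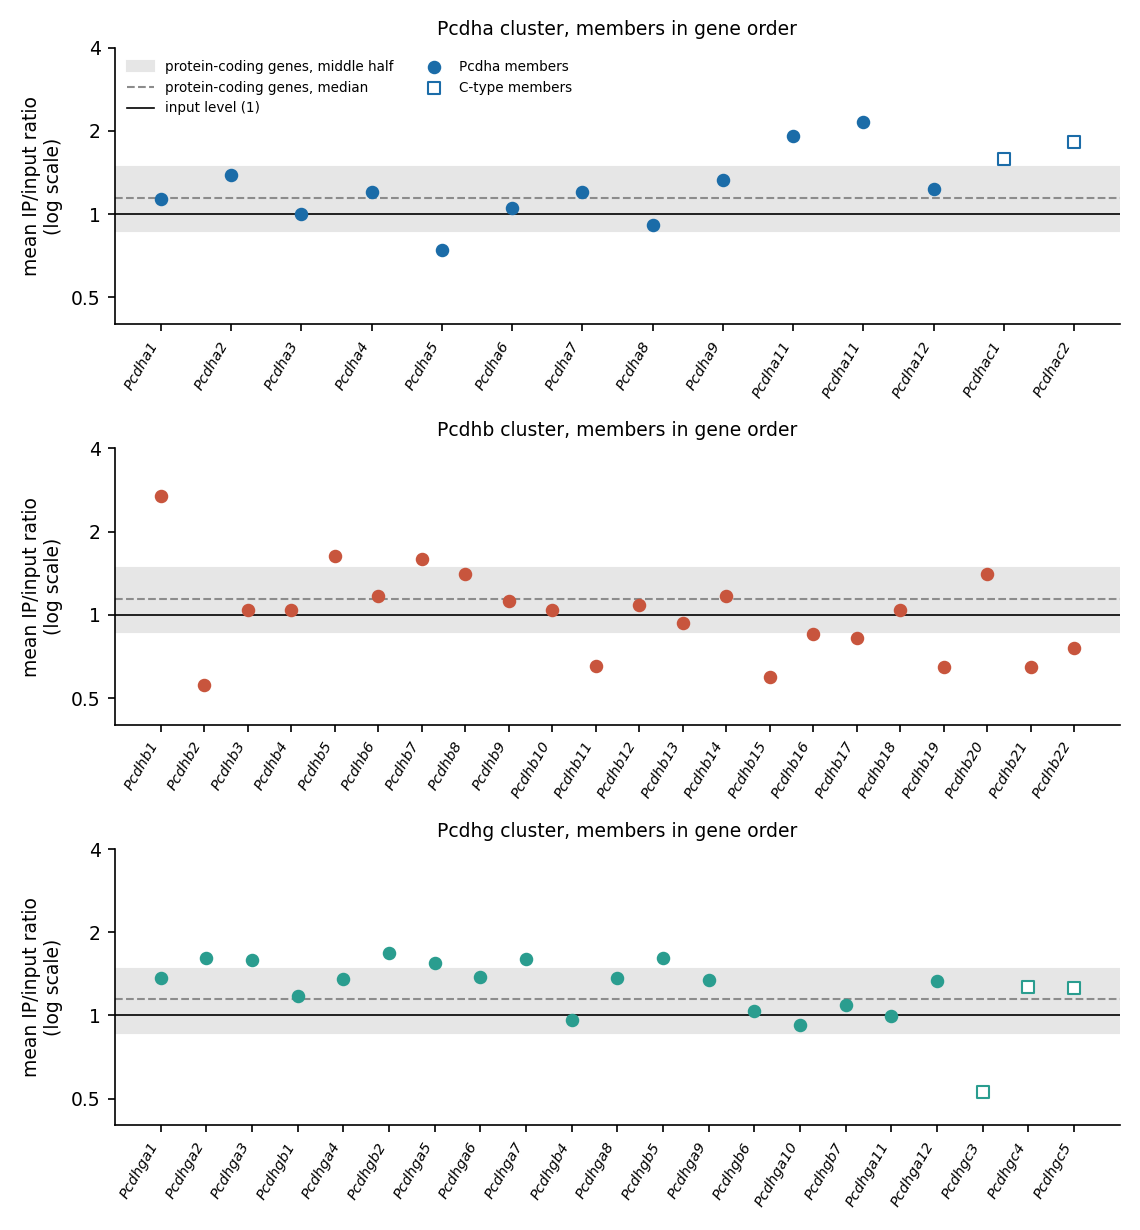
Authors' mean IP/input ratio over 7 pools (log scale) of the 57 clustered protocadherins, in their order along chromosome 18 within the Pcdha, Pcdhb and Pcdhg clusters. Pcdhb1 at 2.69 is the highest, most Pcdhb genes from Pcdhb11 on lie below 1, and Pcdhgc3 at 0.530 is the lowest.

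Among the Pcdha genes, the highest were both Pcdha11 rows, at 2.15 and 1.91, then the C-type isoforms Pcdhac2 and Pcdhac1, at 1.82 and 1.59, and Pcdha2, at 1.38. The C-type exons lie at the end of the cluster and are not chosen at random as the alternate exons are, and Pcdhac2 spaces serotonergic axons in the mouse. The lowest were Pcdha5 at 0.742, Pcdha8 at 0.916, Pcdha3 at 1.00, Pcdha6 at 1.06 and Pcdha1 at 1.14. The ratios were higher towards the end of the cluster, with a Spearman's rho of 0.60 over 14 genes that share the constant exons and the libraries.

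Among the Pcdhb genes, Pcdhb1, the first of the cluster, stood apart at 2.69, and 96.1% of protein-coding genes were below it. A single pool at 12.8 with the others at input level would give the same mean. The next were Pcdhb5 at 1.63, Pcdhb7 at 1.59, Pcdhb20 at 1.40 and Pcdhb8 at 1.40. The lowest were Pcdhb2 at 0.559, Pcdhb15 at 0.597, Pcdhb19 and Pcdhb21 at 0.647 each and Pcdhb11 at 0.651. The ratios were lower towards the end of the cluster (rho = -0.43 over 22 genes). In groups set after the values were seen, all 6 genes Pcdhb5 to Pcdhb10 were above input (1.04 to 1.63, median 1.28). Of the 12 genes Pcdhb11 to Pcdhb22, 4 were above input (0.597 to 1.40, median 0.837). Of protein-coding genes 62.4% were above input, with a median of 1.14. Pcdhb9 at 1.13 and Pcdhb10 at 1.04 lay under that median.

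The Pcdhg genes, with Pcdhgc3 left aside, ran over 0.924 to 1.68. The highest were Pcdhgb2 at 1.68, Pcdhgb5 and Pcdhga2 at 1.62 each, Pcdhga7 at 1.60 and Pcdhga3 at 1.59. The subfamilies Pcdhga and Pcdhgb had 10 of 12 and 5 of 6 genes above input, 83.3% each against 62.4% of protein-coding genes. Their medians were 1.365 and 1.13, so the Pcdhgb median lay at the protein-coding median of 1.14. The lowest were Pcdhgc3 at 0.530, Pcdhga10 at 0.924, Pcdhgb4 at 0.967, Pcdhga11 at 0.997 and Pcdhgb6 at 1.03. The C-type Pcdhgc4, required for the survival of interneurons in the mouse, and Pcdhgc5 were both at 1.26. Of the 5 C-type isoforms 4 were above input, where 62.4% of protein-coding genes were, and the remaining one was Pcdhgc3, which is expressed in many cell types. Along the cluster the ratios were lower towards the end (rho = -0.60 over 21 genes).

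The values of single Pcdha and Pcdhg genes are uncertain, because a read from a constant exon fits every gene of its cluster, while Pcdhb genes have no constant exon. The share of a gene's 31-base words that occur in another gene was 48.4% to 92.2% in Pcdha, 0% to 66.9% in Pcdhb and 37.4% to 99.4% in Pcdhg, against 0% to 20.7% in the members outside the clusters. Single values in Pcdha and Pcdhg can therefore be split with other genes, with Pcdhga10 (99.4%) and Pcdha4 (92.2%) the most exposed. Another member held 45.4% and 57.3% of their words, so their remaining shared words lay only in genes that are not members. Shares with another member were highest for Pcdha7 (70.2%) in Pcdha and for Pcdhga4 (67.5%) in Pcdhg. Pcdhb1 shares no such word with another gene. The Pcdha11 rows at 2.15 and 1.91 shared 81.8% and 63.0% of their words with another gene, and 44.9% and 62.6% with another member. The share did not order the ratios over all 57 clustered genes (rho = 0.16), with rho = -0.26 in Pcdha, 0.30 in Pcdhb and -0.36 in Pcdhg. In Pcdhg, 10 of the 11 genes with a share of 50% or less were above input (median 1.36), and 7 of the 10 genes with a larger share (median 1.13). Of protein-coding genes 62.4% were above input, with a median of 1.14.

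**Figure D3:**
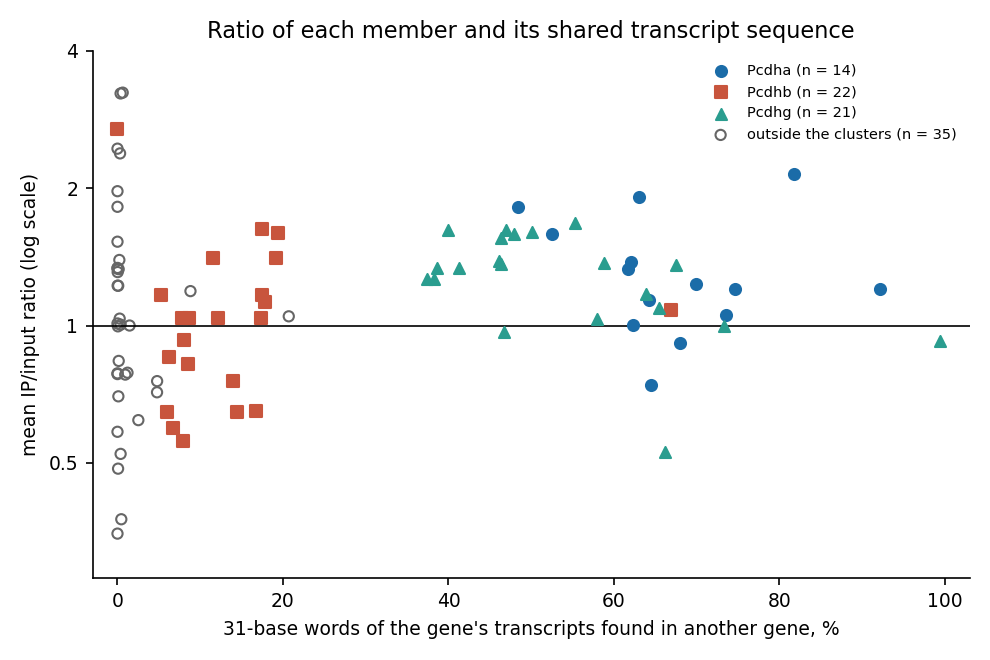
Share of each member's 31-base words found in another gene (horizontal axis, percent) against its authors' mean IP/input ratio over 7 pools (vertical axis, log scale), coloured by cluster, with the 35 members outside the clusters as open circles. Pcdhb genes other than Pcdhb12 (66.9%) lie at the left, over ratios of 0.559 to 2.69, and Pcdha and Pcdhg genes lie at the right.

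The catenins and the rest of the cadherin superfamily had medians under input. Of the 8 catenins, 2 were above input and 6 below, where 62.4% of protein-coding genes were above, with a median of 0.774: Ctnna2, the neuronal alpha-catenin, was highest at 1.11, Ctnnb1, beta-catenin, was at 0.736 and Jup, plakoglobin, lowest at 0.693. Of the 24 other genes of the cadherin superfamily, 10 were above input and 14 below, 41.7% above against the same 62.4%, with a median of 0.982. The highest was Dsc1, a desmosomal cadherin, at 1.98 and the lowest Dsc3, another desmosomal cadherin, at 0.353. Both lists, like those of the cell types, were set with results of these data known.

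**Figure D4:**
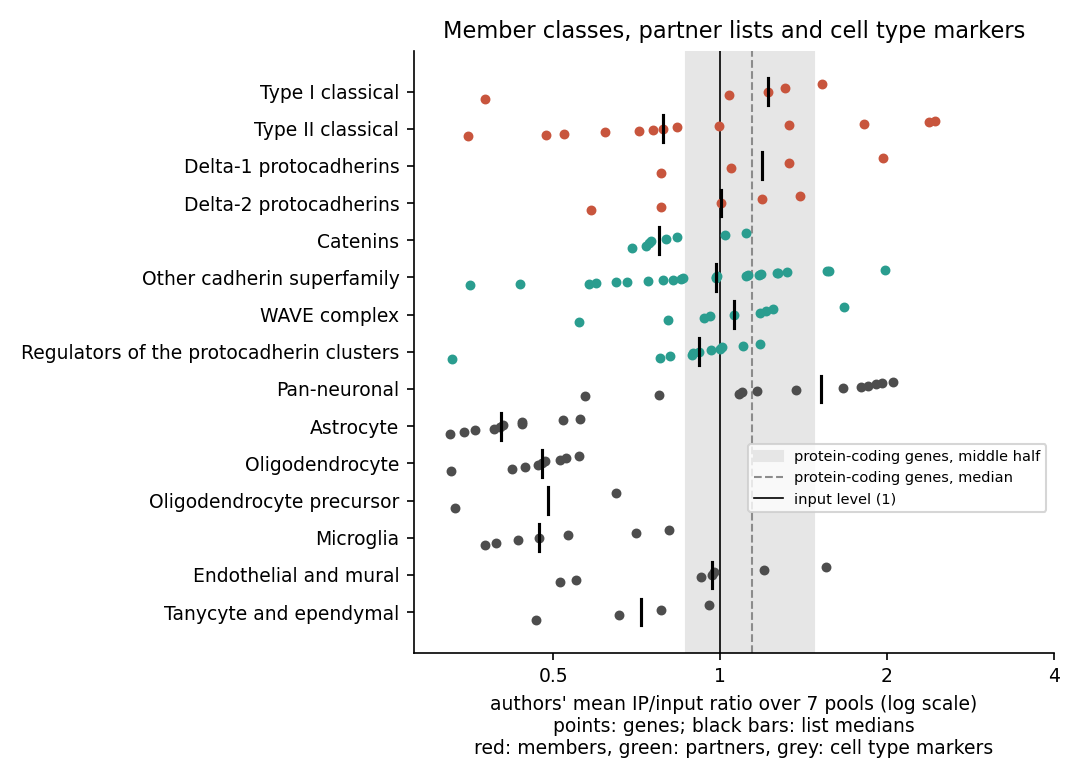
Authors' mean IP/input ratio over 7 pools (log scale) of each gene in the type I, type II, delta-1 and delta-2 classes. The lists of partners and regulators and of cell type markers are also drawn, with a bar at each list's median. Members outside the clusters that belong to none of these classes, among them Cdh17 and Cdh13, and the POMC neuron markers are not drawn. The medians of type II cadherins (0.788) and catenins (0.774) lie left of the input level and those of glial markers further left. The median of pan-neuronal markers (1.52) lies right of it, with Map2 and Syt1 on the left.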

How the data were processed

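RNA was sequenced from 14 libraries of 7 pools. Per the study's methods, reads were aligned to GRCm38.p6 with STAR and genes quantified with Salmon (0.14.1). The authors took IP over input within each pool, and tested the lines against each other with DESeq2 (1.26.0). The score in the deposited table is the authors' mean of those ratios over all pools, scaled by 1000 as read from the values: times 7 it was whole, within 1e-06, in 100% of genes, so no size factors were applied to the ratios, while any scaling before the ratio was taken was not tested, and 1162 genes stood at 0.929, the mean that 1 input read and 0 IP reads in a single pool would give with a pseudocount of 1, which no source states. Its other columns hold the fold changes, standard errors, statistics and p-values of the authors' comparison of the lines and were not used. The planned comparison of the lines needs values of single libraries and was not made. The read length, annotation release and tissue are given differently by the sources.

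From the ratios, counts on either side of 1, of 1.5 and of 0.667, medians and Spearman's rho were computed with Python 3.11.15, pandas 2.3.3 and scipy 1.17.1. Coordinates came from GENCODE M21, which held all 92 members and 44116 of 44672 identifiers, and CG counts from RefSeq windows. Scripts were tested on simulated data. All members outside the clusters are named, with the 5 highest and the 5 lowest genes of each cluster and the C-type isoforms. The highest and lowest genes are named for the catenin, cadherin superfamily, WAVE complex and cluster regulator lists. The same was done for the POMC neuron, pan-neuronal, and endothelial and mural markers, but not for the other marker lists. The rule for members reads symbols only, but it and the lists were chosen with earlier results of these data known.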

Additional observations from a re-analysis of the deposited data

How the results depend on the processing

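The count of 61 members above input fell to 20 at a ratio above 1.5 and to 6 above 2. These were 22.0% and 6.59% of the 91 members off 1, against 23.7% and 8.89% of protein-coding genes. Divided by the median protein-coding gene, the median ratio was 1.03 for the clustered members and 0.884 for the others, and leaving out the gene at exactly 1 gave 1.02 for the others. Counting members above the median protein-coding gene gave 46 of 92. Adding a polymorphic pseudogene gave 62 of 93 above input, where 62.4% of protein-coding genes off 1 were. Keeping genes with at most 50% shared sequence, chosen after seeing the data, gave 42 of 68, beside the same 62.4%. That limit kept only 1 of the 14 Pcdha and 11 of the 21 Pcdhg genes, and 21 of the 22 Pcdhb genes. No paired analysis was possible because the table holds no value of a single library. For the same reason leaving out replicates, other pseudocounts and filters on low values were not run. Depth and replicate spread are unknown, so a ratio near 1 cannot be told apart from input.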

Other observations

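The subunits of the WAVE complex, the actin regulators that some delta protocadherins recruit, had a median ratio of 1.06. Of the 9 subunits, 5 were above input and 4 below, where 62.4% of protein-coding genes were above. Brk1 at 1.67 was the highest and Cyfip1 at 0.556 the lowest. Of 11 regulators of the protocadherin clusters, 3 were above input and 8 below, against the same 62.4% above, with a median of 0.915. Smc1a, a cohesin subunit, was highest at 1.18, the insulator protein Ctcf was at 1.01, and Dnmt3b, the DNA methyltransferase that acts on these promoters in the mouse, was lowest at 0.328. Pcdhgb8, annotated as a polymorphic pseudogene and so no member, was at 1.20.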
